A study of Mus musculus with 2 samples.

Results

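The miR-30 family was examined in skeletal muscle of female B6CASTF1/J mice aged 10 days, taken from the gastrocnemius of the calf. These animals are first-generation hybrids of C57BL/6 and CAST mice, obtained from The Jackson Laboratory per the labels. The family was defined as the 6 genes Mir30a, Mir30b, Mir30c-1, Mir30c-2, Mir30d and Mir30e, taken by their GENCODE M21 symbols from the 2202 annotated miRNA genes. The series holds 2 libraries of RNA under 30 bases, which the labels number as biological replicates 1 and 2 and describe as separate animals. Both carry the same donor entry but have biosample entries of their own. No treatment, genotype or age contrast exists, and the data give the level of each gene, its spread over the animals and the difference between the libraries. Reads of the CAST alleles were aligned to a reference of C57BL/6 origin, and the part this plays in the counts was not tested.

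A miRNA gene is transcribed as a hairpin from which a 5p and a 3p mature arm are cut. One of the arms is loaded into an Argonaute protein and guides it to messenger RNAs, mainly through its seed, bases 2 to 8. Genes of the miR-30 family yield 5p arms with a common seed and are broadly expressed, striated muscle included. The family has been linked to myoblast differentiation and, in the heart, to restraint of connective tissue growth factor.

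Mature arms were printed to show what the members share and where they part. RefSeq sequences (build GRCm38.p6) were matched for 4 of the 6 members, and their hairpin coordinates were identical to those of the annotation for 4 of 4. Mir30b and Mir30d are named only. Each arm runs 5′ to 3′ with the seed in capitals.
miR-30a-5p: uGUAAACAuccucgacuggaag
miR-30e-5p: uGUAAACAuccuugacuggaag
miR-30c-5p: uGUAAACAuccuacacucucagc
miR-30a-3p: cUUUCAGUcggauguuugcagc
miR-30e-3p: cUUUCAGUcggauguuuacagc
miR-30c-1-3p: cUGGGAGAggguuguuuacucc
miR-30c-2-3p: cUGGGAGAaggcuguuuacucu
The 5p arms of Mir30a, Mir30e and both Mir30c genes held the seed GUAAACA and had their first 12 bases in common. Arms of Mir30a and Mir30e differed by a single base each, C13U in the 5p arm and G18A in the 3p arm, with positions counted from 1 at the 5′ end. Mir30c-1 and Mir30c-2 have the same 5p arm of 23 bases, and their 3p arms differed by G9A, U12C and C22U. The 3p arms formed 2 seed groups, UUUCAGU for Mir30a and Mir30e and UGGGAGA for the Mir30c genes.

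The genes lie as pairs at 3 loci (mm10). Mir30d (ENSMUSG00000065437.1, chromosome 15, 68341208 to 68341289, minus strand) lies 3697 bases from Mir30b (ENSMUSG00000065476.2, 68337415 to 68337510, same strand). Mir30d falls in an exon of the lincRNA Gm20732, whereas no annotated gene on its strand contains Mir30b whole. Mir30a (ENSMUSG00000065405.3, chromosome 1, 23272269 to 23272339, plus strand) lies 19361 bases from Mir30c-2 (ENSMUSG00000065567.1, 23291701 to 23291784, plus strand). Mir30c-2 falls in an exon of the lincRNA Gm27028, and Mir30a has no annotated host. Mir30e (ENSMUSG00000065409.1, chromosome 4, 120772606 to 120772697, minus strand) and Mir30c-1 (ENSMUSG00000065490.1, 120769534 to 120769622, minus strand) lie in introns of Nfyc, which encodes a subunit of the CCAAT-binding factor NF-Y. They are 2983 bases apart.

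**Figure D1:**
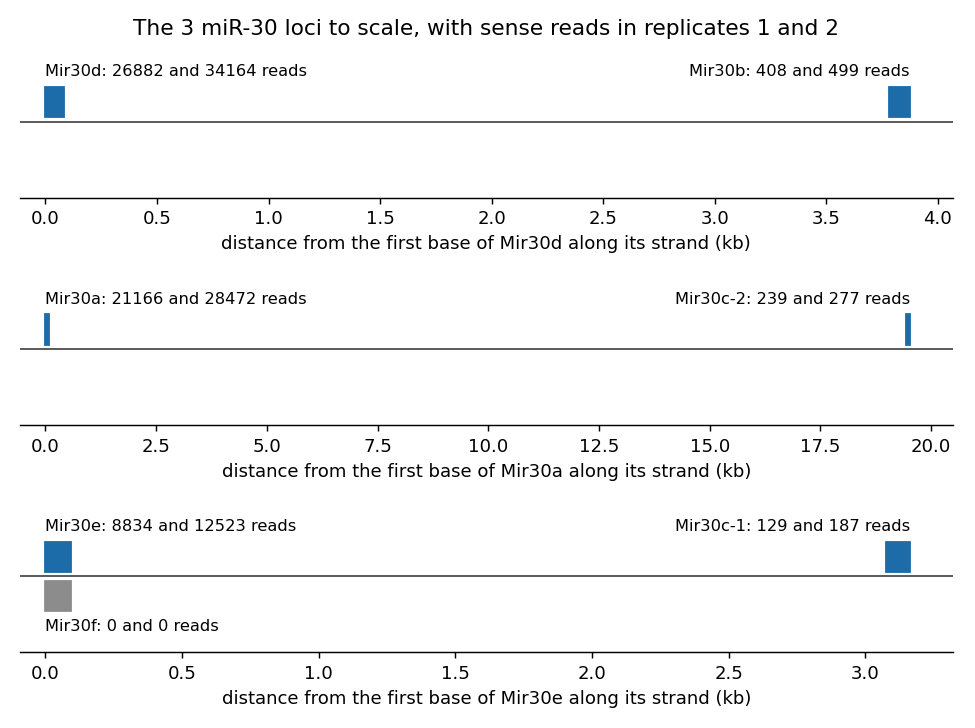
Positions of the miR-30 hairpins at their 3 loci, drawn to scale as distance in kb from the first base of the gene transcribed first, with blue boxes for the family, a grey box for Mir30f on the opposite strand, and sense reads of replicates 1 and 2 beside each name. At every locus the gene on the left, Mir30d, Mir30a or Mir30e, held far more reads than its neighbour on the right, and Mir30f held 0.

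Sense reads on miRNA genes, the denominator of all levels, numbered 3510897 in replicate 1 and 3949733 in replicate 2. Mir206, a defining miRNA of skeletal muscle, was present at 115948 and 95264 counts per 1e6 of these reads (CPM). A read of this size class covers about 1 mature arm of 22 or 23 bases, so counts were not divided by hairpin length for the main values.

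Of the reads that could be placed at a single site, nearly all of the family's lay on 3 of its 6 genes. All 6 reached 2 CPM in both libraries, but Mir30d, Mir30a and Mir30e together held 98.7% of the family's reads in either library. Mir30b, Mir30c-2 and Mir30c-1 held 0.682% ± 0.0368, 0.389% ± 0.0358 and 0.235% ± 0.0155 (SD, n = 2 animals). The whole family took 57658 reads in replicate 1, or 1.64% of sense miRNA reads (Wilson 95% interval 1.63% to 1.66%). In replicate 2 it took 76122 reads, or 1.93% (1.91% to 1.94%). Intervals here and below treat reads as independent and cover counting error only, not the spread over animals. The reads carry no molecular identifiers, so their independence was not tested.

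Mir30d was the highest member, with 26882 reads in replicate 1 and 34164 in replicate 2, or 7657 and 8650 CPM. It ranked 25th and 23rd of all miRNA genes in these libraries. Mir30a followed with 21166 and 28472 reads, or 6029 and 7209 CPM. Mir30d exceeded Mir30a within each animal, by 1.27-fold in replicate 1 (exact 95% interval 1.25 to 1.29) and 1.20-fold in replicate 2 (1.18 to 1.22). The libraries of these genes did not overlap, the lowest value of Mir30d being 7657 CPM and the highest of Mir30a 7209 CPM. Their means lay 1535 CPM apart and their SDs summed to 1536 CPM, so the difference of the means was no larger than the summed SDs. That sum sets aside that both genes were measured in the same animals and were both higher in replicate 2. Per base of hairpin, the ratio fell to 1.10 and 1.04.

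Mir30e, the leading gene of the Nfyc locus, had 8834 and 12523 reads, or 2516 and 3171 CPM. It stood below Mir30a in both animals, by 2.40-fold in replicate 1 and 2.27-fold in replicate 2, with no overlap between the libraries of these genes. In contrast, Mir30b had 408 and 499 reads, or 116.2 and 126.3 CPM, although it neighbours the highest member. The step from Mir30e to Mir30b, 21.7-fold and 25.1-fold, was the largest between neighbours in the order of the 6 genes.

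The Mir30c genes were lowest. Mir30c-2 had 239 and 277 reads, or 68.1 and 70.1 CPM, and Mir30c-1 had 129 and 187 reads, or 36.7 and 47.3 CPM. Mir30b exceeded Mir30c-2 by 1.71-fold and 1.80-fold, and Mir30c-2 exceeded Mir30c-1 by 1.85-fold and 1.48-fold. The order of all 6 genes was the same in both libraries and also per 100 bases of hairpin. Apart from Mir30d and Mir30a, the means of neighbours in the order lay further apart than their summed SDs.

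**Figure D2:**
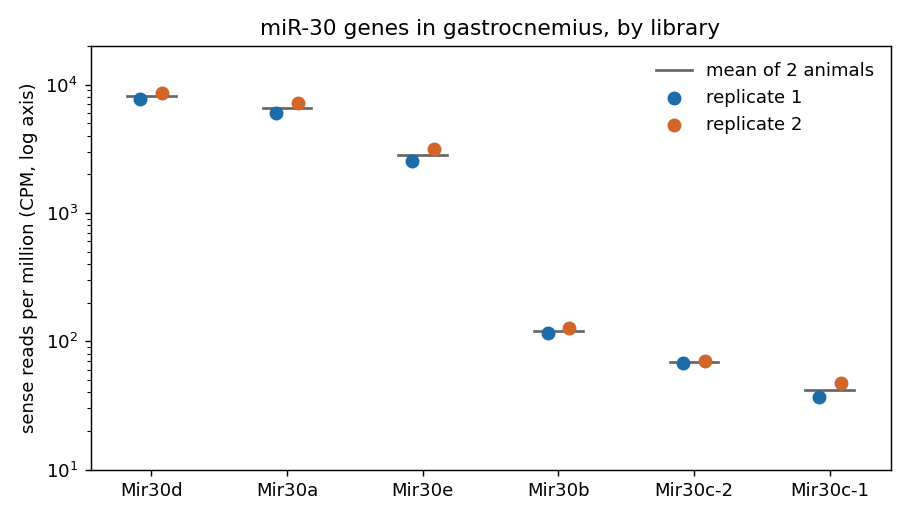
Level of each miR-30 gene in CPM on a log axis, with a point for each library and a bar at the mean of the 2 animals. Mir30d, Mir30a and Mir30e sit between 2516 and 8650 CPM and the other members between 36.7 and 126.3 CPM, with no gene in between.

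The genes closest in level over both libraries were sought outside the family only, among the 314 with at least 10 reads in each library. Mir196b, of the Hox clusters, lay nearest Mir30d at 8093 and 7367 CPM, a distance of 0.25 on the log2(CPM + 1) scale. Mir100 lay nearest Mir30a at 6086 and 6507 CPM (distance 0.15). Mir341, of the Dlk1-Dio3 region, lay nearest Mir30e at 2755 and 2854 CPM (distance 0.20). With 2 libraries this likeness is one of level and carries no test.

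Each locus paired a gene with many reads and one with few, in both animals. Mir30d exceeded Mir30b 65.9-fold in replicate 1 (exact 95% interval 59.7 to 72.8) and 68.5-fold in replicate 2 (62.7 to 74.9). Mir30e exceeded Mir30c-1 68.5-fold (57.6 to 82.1) and 67.0-fold (58.0 to 77.8). Mir30a exceeded Mir30c-2 88.6-fold (78.0 to 101.0) and 102.8-fold (91.3 to 116.1). The intervals of the libraries overlapped at all 3 loci, which is no test of a difference. A change of the ratio between animals was not tested. Library scaling cancels in these ratios.

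Hairpins of the Mir30c genes are shown because their shared stretch bears on how their reads were counted. The longest stretch common to both, in capitals, has 28 bases and contains the whole miR-30c-5p arm.
Mir30c-2: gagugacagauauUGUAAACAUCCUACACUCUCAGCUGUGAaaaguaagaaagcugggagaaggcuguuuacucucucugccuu
Mir30c-1: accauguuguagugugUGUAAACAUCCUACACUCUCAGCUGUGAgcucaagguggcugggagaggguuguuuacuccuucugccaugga
A read within this stretch matches both loci equally. The files set aside every read with more than 1 alignment, 42.6% of all reads in replicate 1 and 46.4% in replicate 2. The values of Mir30c-1 and Mir30c-2 are therefore no measure of miR-30c, and their place below the other members is uncertain. The share of the family is uncertain for the same reason, since set-aside reads left both the family and the total. How many reads of miR-30c-5p, or of Mir30b, were set aside was not tested. Mir30a and Mir30e had no stretch longer than 18 bases in common, shorter than either arm. Neither has an arm that recurs whole in another hairpin of the table.

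Whole copies of an arm in another gene's hairpin, on either strand, were found for 179 of 1738 mature entries in the table (10.3%). An entry opposite another gene at the same site therefore counts as copied too. Among detected genes with an entry, the 49 with a copied arm had a median of 69.1 CPM and the 251 without one a median of 183.2 CPM. Mir30c-2 and Mir30c-1 belong to the first group, and Mir30a and Mir30e to the second. The median of the first group is the value of Mir30c-2 itself. The part of copied arms in these levels was not tested.

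The miR-29 and miR-181 families have the same layout of paired genes with copies at other loci, and are given for scale with no test between families. Mir29a exceeded its neighbour Mir29b-1 by 62.5-fold and 66-fold, and Mir29c exceeded Mir29b-2 by 20.3-fold and 22.6-fold. As with Mir30c, both Mir29b genes carry an arm that the other also holds. Mir181a-1 exceeded Mir181b-1 by 44.7-fold and 46.5-fold, and Mir181b-2 exceeded Mir181a-2 by 23.4-fold and 26.4-fold, and these 4 genes each carry a copied arm. Mir181d and Mir181c, with no copied arm, had a ratio of 1.13 and 1.01. All reads of the miR-29 family came to 0.0145% and 0.0184%, and of the miR-181 family to 0.246% and 0.243%, below the miR-30 share in each library.

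**Figure D3:**
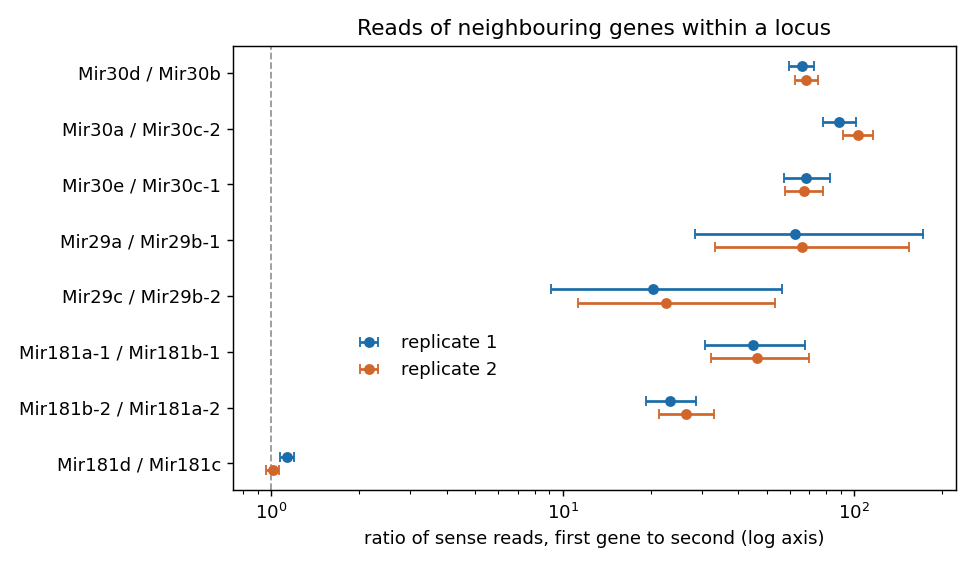
Ratio of sense reads of the first to the second gene at each locus, on a log axis, in replicate 1 and replicate 2, with exact 95% intervals. The 3 miR-30 loci lie between 65.9 and 102.8 in both libraries, and the pair Mir181d and Mir181c lies near 1.

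Mir30e overlaps a further annotated gene of the family, Mir30f (ENSMUSG00000105585.1), which occupies the same bases on the opposite strand. The hairpin of Mir30e is shown with the 22 bases opposite the mature miR-30f in capitals, and miR-30f is given below it with its seed in capitals.
Mir30e: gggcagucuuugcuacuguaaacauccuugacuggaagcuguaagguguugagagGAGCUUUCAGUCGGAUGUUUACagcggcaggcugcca
miR-30f: gUAAACAUccgacugaaagcuc
These bases include 19 of the 22 in miR-30e-3p. The seed of miR-30f, UAAACAU, was held by no other mature entry of the table and is not that of the family. Mir30f had 0 sense reads in either library, for which the limit set by 3 counts is 0.854 CPM in the first animal and 0.760 CPM in the second. All 8834 and 12523 reads at this place lay on the Mir30e strand. Counted without strand these reads were ambiguous, and Mir30e then had 0 reads. The other members had the same number of reads with and without strand, and 0 antisense reads.

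Between the libraries, the 3 abundant members differed by more than counting error under the main scaling, and Mir30d did not when scaled to all reads. Replicate 2 was higher for Mir30a by 1.20-fold (95% interval 1.17 to 1.22, exact binomial adjusted p = 1.31e-85). It was higher for Mir30d by 1.13-fold (1.11 to 1.15, exact binomial adjusted p = 1.34e-49) and for Mir30e by 1.26-fold (1.23 to 1.30, exact binomial adjusted p = 1.43e-61). Scaled to all reads of a library, the log2 ratio of Mir30d was 0.026 in place of 0.18 (exact binomial adjusted p = 0.0597), whereas Mir30a and Mir30e still passed. This test compares 2 libraries, each of a single animal, and has no replicate behind it. Over the 395 genes tested, 41.3% passed at an adjusted p under 0.05, with 17.0% higher in replicate 2 and 24.3% lower. A gene with more reads passes at a smaller ratio, as Mir127 did at 1.02-fold (exact binomial adjusted p = 3.45e-11). The 41.3% spans genes of all depths and is no measure for genes as abundant as these 3.

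The scarce members, with fewer reads and so wider intervals, did not pass under the main scaling. The ratio of replicate 2 to replicate 1 was 1.09 for Mir30b (95% interval 0.952 to 1.24, exact binomial adjusted p = 0.349) and 1.03 for Mir30c-2 (0.863 to 1.23, exact binomial adjusted p = 0.844). For Mir30c-1 it was 1.29 (1.02 to 1.63, exact binomial adjusted p = 0.0640), and it passed with DESeq2 size factors (exact binomial adjusted p = 0.0292) and without strand (exact binomial adjusted p = 0.0412). These intervals include the ratios of the abundant members, except that the ratio of Mir30e lies outside those of Mir30b and Mir30c-2. None of the 6 members reached 2-fold, against 7.09% of tested genes that passed with at least 2-fold.

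All 6 ratios lay above 1, against 46.1% of tested genes, under the main scaling. Scaled to all reads of a library, Mir30b and Mir30c-2 lay below 1, and the median of all genes moved from -0.029 to -0.18 on the log2 scale. Relative to that median, the log2 ratio was 0.36 for Mir30e, 0.29 for Mir30a, 0.20 for Mir30d, 0.39 for Mir30c-1, 0.15 for Mir30b and 0.072 for Mir30c-2. Of the 79 genes with at least 1000 CPM on average, 2 had a higher log2 ratio than Mir30e, 6 than Mir30a and 11 than Mir30d. The spread of Mir30e over the animals, a coefficient of variation of 16.3%, exceeded the median of 6.75% for these 79 genes. Those of Mir30a, 12.6%, and Mir30d, 8.61%, also exceeded it. With 2 libraries this coefficient follows from their ratio alone and adds no separate estimate of spread.

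**Figure D4:**
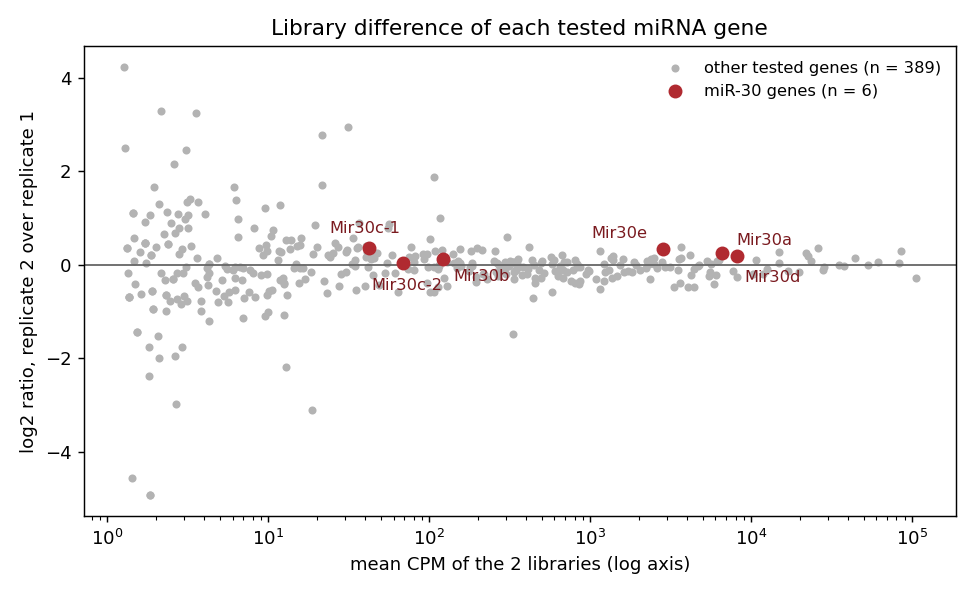
Log2 ratio of replicate 2 over replicate 1 for each tested gene against its mean CPM on a log axis, with the 6 miR-30 genes in red and the other tested genes in grey. The miR-30 genes lie between 0.043 and 0.36, all above 0 under this scaling, within a cloud that widens at low levels.

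Markers of other cell types differed between the same libraries. In bulk tissue, fewer cells of a type and less RNA per cell cannot be told apart. The striated muscle list (9 genes, 8 detected) held 11.7% of reads in replicate 1 and 9.61% in replicate 2. Nearly all of these were reads of Mir206, 407082 and 376268, and of the 8 tested genes 7 were higher in replicate 2, with Mir1a-2, Mir208b and Mir486 passing and a median log2 ratio of 0.32. All marker shares are given under the main scaling only, and scaling to all reads moved the median log2 ratio of all genes from -0.029 to -0.18. Reads with more than 1 alignment, 42.6% and 46.4% of all reads, were set aside here too. How many of them came from Mir1a-1, Mir1a-2, Mir133a-1 or Mir133a-2 was not tested, so the striated muscle share is no measure of all muscle miRNA. Shares higher in replicate 2 were those of the endothelial gene Mir126a (4.20% and 4.63%) and the smooth muscle list (2.35% and 2.99%). The neural and glial list was higher too (10 genes, 0.0296% and 0.0547%, with Mir9-2 and the 3 Mir124a genes at 0). Nearly all of its reads were those of Mir338 (853 and 1449) and Mir137 (161 and 670). Of its 4 tested genes 3 were higher in replicate 2. Mir219a-1 was not (log2 ratio -0.17, exact binomial adjusted p = 0.906), and Mir219a-2 did not pass (exact binomial adjusted p = 0.255). In the smooth muscle list, Mir143 carried the shift (80068 and 115293 reads), and Mir145a did not pass (log2 ratio 0.056, exact binomial adjusted p = 0.289). Shares lower in replicate 2 were those of the mesenchymal list (4 genes, 0.403% and 0.289%) and the erythroid list (2 genes, 0.207% and 0.187%). The leukocyte list (5 genes, 0.110% and 0.0974%), the epithelial list (7 genes, 0.0197% and 0.0125%) and the liver gene Mir122 (0.0491% and 0.0176%) were lower too. Nearly all mesenchymal reads were those of Mir214 (13694 and 10983). Mir199b and the erythroid gene Mir144 did not pass (log2 ratios -0.086 and -0.015, exact binomial adjusted p = 0.650 and 0.920). Of the tested genes, 1 of 5 leukocyte genes (Mir155) and 1 of 6 epithelial genes (Mir200a) were higher in replicate 2. The part of these shifts in the miR-30 difference was not tested.

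Of 17 genes on a list of miRNAs known from muscle differentiation, 16 could be tested between the libraries. At an adjusted p under 0.05, 6 were higher in replicate 2, namely Mir378a, Mir322, Mir26b, Mir27b, Mir486 and Mir1a-2, and Mir206 and Mir503 were lower. Over all tested genes 17.0% were higher and 24.3% lower by the same rule. Scaled to all reads, 3 genes of the list were higher and 2 lower, while the higher calls over all genes dropped from 67 to 32. Mir322, which restrains cell cycle genes as myoblasts leave the cycle, was at 13516 and 16329 CPM, and Mir26b at 21267 and 24048 CPM. The median log2 ratio was 0.16 for this list and 0.22 for the 6 miR-30 genes, beside -0.029 for all tested genes.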

How the data were processed

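Libraries of RNA shorter than 30 bases from total RNA were sequenced, per the labels. The authors deposited raw read counts per miRNA gene without strand, sense and antisense, with build mm10 and annotation GENCODE M21 per the notes accompanying the files. The aligner, with its trimming and filters, is not given in the sources used here. Strand of the columns was read from the layout, known from STAR gene counts, and from column totals. A gene count sums both arms.

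Sense counts were scaled to 1e6 sense reads on miRNA genes per library (CPM). Levels are means ± SD of 2 animals. Of 8152102 and 10176117 reads, 43.1% and 38.8% were sense reads on miRNA genes. The 4 summary rows, among them unaligned reads (11.8% and 12.3%), reads outside miRNA genes (2.55% and 2.52%) and ambiguous reads (6.66% and 6.75% without strand), stayed out of totals. A count of 0 was given the limit of 3 counts. Ratios within a library have exact Clopper-Pearson 95% intervals.

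The libraries were compared by an exact binomial test, two-sided and conditional on the totals (SciPy 1.17.1), with Benjamini-Hochberg adjustment over genes whose counts in the 2 libraries summed to 10 or more, and separately with a 2-fold limit. The script was tested on simulated counts that held counting error only and no spread between animals. Log2 ratios add 0.5 to each count. Alternatives used TMM factors (edgeR 4.0.16), DESeq2 1.42.0 size factors, all reads, no filter, other fold limits, 1 added count, unstranded counts, hairpin length and single libraries. P-values measure only the difference between these samples.

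Members, lists and tests were chosen with earlier results of these data known. Named genes were the members, Mir30f, the gene nearest in level to the higher gene of each locus, the miR-29, miR-181 and muscle differentiation lists. Marker genes and Mir384 were named beside them, the last after its value was seen.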

Additional observations from a re-analysis of the deposited data

How the results depend on the processing

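The order of the 6 miR-30 genes rests on reads placed at a single site, which limits Mir30c-1 and Mir30c-2, and on 1 library per animal. No paired analysis was possible because all samples fall into 1 group. Per base of hairpin the locus ratios were 78.6 for Mir30d to Mir30b, 113.2 for Mir30a to Mir30c-2 and 65.5 for Mir30e to Mir30c-1, beside 67.2, 95.7 and 67.7. Without strand the ratio of Mir30e to Mir30c-1 turned to 0, because all reads of Mir30e became ambiguous. The family's share was 1.78% of sense miRNA reads and 0.728% of all reads. With the 2-fold limit, 0 members and 28 of all genes passed between the libraries, and without a fold limit 3 members and 163 genes did. Scaled to all reads, the log2 ratio turned to -0.11 for Mir30c-2 and -0.030 for Mir30b. Calls higher and lower in replicate 2 numbered 67 and 96, against 89 and 78 with DESeq2 size factors and 32 and 146 scaled to all reads. Of 29 log2 ratios of members under alternatives, 24 kept direction and side of the threshold. Beside the 2 that turned, Mir30d lost its call scaled to all reads (0.026, exact binomial adjusted p = 0.0597), and Mir30c-1 passed with DESeq2 size factors (0.42, exact binomial adjusted p = 0.0292) and without strand (0.40, exact binomial adjusted p = 0.0412). With 2 animals, leaving out either one gives the value of the other and tests nothing.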

Other observations

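In the RefSeq table, 1 mature entry outside the family holds the seed GUAAACA, miR-384-5p of Mir384 (chromosome X, 105344282 to 105344369). Mir384 had 3 reads in replicate 1 and 17 in replicate 2, or 0.854 and 4.30 CPM. Mir30b and Mir30d have no entry in the table, so the search left them out, although Mir30d had the most reads of the family. Gene counts sum both arms, so reads that carry this seed were not counted apart. The seed of the 3p arms of Mir30c-1 and Mir30c-2 recurs in miR-6958-5p.

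Mir30e is one of 64 annotated miRNA genes with another miRNA gene on the opposite strand. Sense reads were found on 40 of these, and 35 of the 40 had 0 reads in both libraries when counted without strand.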
